A study of Arabidopsis thaliana with 4 samples.

Results

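The loci described here are 964 transcribed regions of *Arabidopsis thaliana* that Cufflinks, the program used by the authors to assemble transcripts from aligned reads, numbered as loci of its own (XLOC identifiers) and that the deposited table nevertheless lists under the name of an annotated gene. They were chosen by these identifiers and names alone, out of 22409 loci in the table, of which 21284 are listed as annotated genes and 161 are numbered loci without a name. RNA came from pooled seedlings grown in long days and harvested at ZT 16, that is 16 h after lights on. Libraries were made from *upf1-5* and *upf3-1*, which carry an insertion in *UPF1* and in *UPF3*, from the *upf1-5 upf3-1* double mutant made by crossing them, and from wild type (WT), the Col-0 accession. The genotypes have 1 library each, so no difference below has a replicate check. Values are FPKM, a count of sequenced fragments scaled for the length of the transcript and for the size of the library. The number of reads behind a value is unknown. *UPF1* had 3.18 FPKM in *upf1-5*, 30.6 in *upf3-1*, 8.27 in the double mutant, and 23.9 in WT. *UPF3* had 33.7 FPKM in *upf1-5*, 6.36 in *upf3-1*, 7.098 in the double mutant, and 20.8 in WT, so each was lowest in the mutants of that gene.

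Nonsense-mediated mRNA decay (NMD) degrades transcripts whose translation ends too early or too far from the 3′ end. UPF1 is an RNA helicase at the centre of the pathway, and UPF3 links it to the protein complexes that splicing leaves on exon junctions. In Arabidopsis, NMD is known to act on splice variants with premature stop codons, on mRNAs with introns or long sequences after the stop codon, on transcripts of pseudogenes, and on noncoding RNAs that resemble mRNAs.

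The 24 loci named after microRNA genes come first, because genes of these names have short mature sequences annotated. The positions of the loci are unknown, so whether a locus contains the sequence of its name was not tested. A plant microRNA gene is transcribed into a long primary transcript with a hairpin, from which the mature microRNA of about the lengths printed here is cut to guide the silencing of matching mRNAs. The FPKM describe the longer transcripts, not the mature microRNAs. Those below are a selection, printed for the loci that rose in every mutant, for some of the other loci described next, and for a few close relatives. They were read 5′ to 3′ from the RefSeq TAIR10.1 genome, written with DNA letters, and have the seed (bases 2 to 8) in capitals.
miR857 (chr4:7878198-7878218, minus strand): tTTTGTATgttgaaggtgtat
miR408-3p (chr2:19319933-19319953, plus strand): aTGCACTGcctcttccctggc
miR830-3p (chr1:4820406-4820426, minus strand): tAACTATTttgagaagaagtg
miR319a (chr4:12353109-12353129, plus strand): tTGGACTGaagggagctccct
miR319c (chr2:17029870-17029890, plus strand): tTGGACTGaagggagctcctt
miR164b-5p (chr5:287586-287606, plus strand): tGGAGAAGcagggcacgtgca
miR827 (chr3:22122811-22122831, minus strand): tTAGATGAccatcaacaaact
miR165a-3p (chr1:78932-78952, minus strand): tCGGACCAggcttcatccccc
miR166a-3p (chr2:19176241-19176261, plus strand): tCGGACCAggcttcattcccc
miR166e-3p (chr5:16775524-16775544, minus strand): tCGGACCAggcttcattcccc
miR156a-5p (chr2:10676534-10676553, minus strand): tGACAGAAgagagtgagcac
miR157a-5p (chr1:24913276-24913296, minus strand): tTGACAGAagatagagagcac

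Of these, miR165a-3p, miR166a-3p, and miR166e-3p share a seed, and miR165a-3p differs from each of the other sequences at 1 of 21 bases. The same holds for miR319a and miR319c, which also differ at 1 of 21 bases. The sequence of miR157a-5p is identical to that of miR157c-5p. The seeds of the microRNAs of the 4 loci that rose in every mutant, which are miR857, miR408-3p, miR830-3p, and miR319a, all differ.

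Loci named after *MIR857A*, *MIR408*, *MIR830A*, and *JAW* were at least 2-fold higher in each of the 3 mutants than in WT. *MIR857A* and *MIR408* encode microRNAs known for their response to copper and for silencing mRNAs of copper proteins such as laccases. The locus of *MIR857A* had 5.73 FPKM in *upf1-5*, 6.74 in *upf3-1*, 9.24 in the double mutant, and 1.01 in WT. That of *MIR408* had 1.15 FPKM in *upf1-5*, 4.102 in *upf3-1*, 2.43 in the double mutant, and 0.218 in WT. The 3 mutants lay above WT at both loci, with ratios from 5.68 to 9.16 for *MIR857A* and from 5.26 to 18.8 for *MIR408*. The annotated gene *MIR408*, the only microRNA gene that the table lists beside its locus, was more abundant, with 23.3 FPKM in *upf1-5*, 17.5 in *upf3-1*, 64.2 in the double mutant, and 11.8 in WT, so only the double mutant exceeded WT 2-fold there. *MIR830A*, whose microRNA is not found in most other plants, had 3.57 FPKM in *upf1-5*, 5.23 in *upf3-1*, 7.41 in the double mutant, and 1.54 in WT. *JAW*, the name used for *MIR319A*, encodes a microRNA that silences *TCP* mRNAs in leaf growth, and its locus had 1.32 FPKM in *upf1-5*, 3.202 in *upf3-1*, 1.88 in the double mutant, and 0.412 in WT. The lowest mutant value at these 4 loci was that of *upf1-5*.

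Other microRNA loci changed in some mutants only. *MIR164B*, whose microRNA silences *NAC* genes that set organ boundaries, had 2.18 FPKM in *upf1-5*, 4.32 in *upf3-1*, 4.35 in the double mutant, and 1.18 in WT, above WT by 3.67 times in *upf3-1* and 3.700 times in the double mutant. *MIR827A*, whose microRNA takes part in the response to phosphate, had 1.18 FPKM in *upf1-5*, 0.741 in *upf3-1*, 14.5 in the double mutant, and 1.18 in WT, so the double mutant stood apart from the other 3 libraries. *MIR166E*, which acts with its relatives on homeodomain-leucine zipper mRNAs of leaf polarity, had 0.2800 FPKM in *upf1-5*, 4.07 in *upf3-1*, 0.698 in the double mutant, and 0.476 in WT, and here *upf3-1* stood apart. *MIR165A* names 2 loci that behaved differently. One had 3.86 FPKM in *upf1-5*, 3.68 in *upf3-1*, 2.53 in the double mutant, and 1.43 in WT. The other had 0.882 FPKM in *upf1-5*, 1.51 in *upf3-1*, 0.909 in the double mutant, and 1.51 in WT, and none of its ratios reached 2. The falls of 2-fold or more were those of *MIR171A*, to 0.674 FPKM in *upf1-5*, against 2.11 in WT, and of *MIR841A*, to 0.4897 FPKM in the double mutant, against 1.92 in WT.

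**Figure D1:**
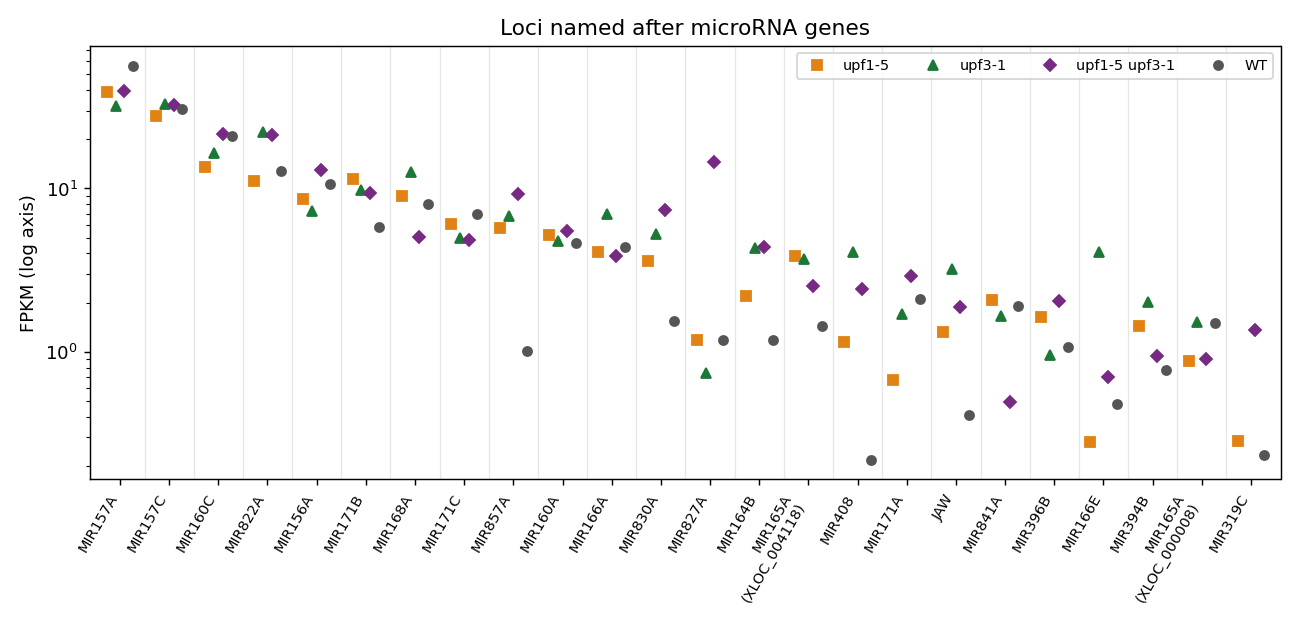
FPKM on a log axis of the 24 loci named after microRNA genes, ordered by mean, with 1 point for each library and no error bars since each genotype has 1 library. WT is the lowest point at *MIR857A*, *MIR830A*, *MIR408*, and *JAW*, whereas the libraries lie close together at the loci of 10 FPKM or more on the left, such as *MIR157C* and *MIR160C*.

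The abundant microRNA loci named next stayed within a 2-fold difference. *MIR157A*, of the family that silences *SPL* mRNAs and delays the change from juvenile to adult leaves, had 38.9 FPKM in *upf1-5*, 32.1 in *upf3-1*, 39.5 in the double mutant, and 56.5 in WT. *MIR157C*, with the same mature sequence, had 27.8 FPKM in *upf1-5*, 32.98 in *upf3-1*, 32.5 in the double mutant, and 30.6 in WT. *MIR156A*, of the same family, had 8.63 FPKM in *upf1-5*, 7.25 in *upf3-1*, 13.04 in the double mutant, and 10.6 in WT, and none of these 3 loci reached a 2-fold difference in a mutant. The same was true of *MIR160C*, which acts on auxin response factor mRNAs, with 13.6 FPKM in *upf1-5*, 16.4 in *upf3-1*, 21.5 in the double mutant, and 21.03 in WT. In all, 12 of the 24 loci were compared in every mutant and changed in none. By mutant, 5 of 22 microRNA loci compared rose in *upf1-5* (22.7%), beside 7.64% of all loci of the table and 20.8% of named loci. In *upf3-1*, 8 of 23 rose (34.8%), beside 14.6% and 32.4%, and in the double mutant 7 of 22 (31.8%), beside 15% and 26.1%, so the microRNA loci were close to the named loci as a whole. The falls numbered 1, 0, and 1 in the same order of mutants, beside 2.4%, 6.91%, and 6.91% of the table.

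To describe the named loci as a whole, a locus was counted as up or down at a fold of 2 or more with at least 1 FPKM in 1 or both of the libraries compared. The study's methods give the same limits of fold and FPKM, without saying in how many libraries the FPKM is needed, and also a false discovery rate, which was not applied here. In *upf1-5*, 165 of 792 named loci compared were up (20.8%), beside 7.64% of all loci of the table, and 95 were down (11.99%), beside 2.4%. In *upf3-1*, 259 of 800 were up (32.4%), beside 14.6%, and 88 were down (11%), beside 6.91%. In the double mutant, 214 of 820 were up (26.1%), beside 15%, and 110 were down (13.4%), beside 6.91%. Named loci thus passed the fold more often than the table did in both directions and in each mutant. With no replicate, how much of this comes from measurement error cannot be said. On log2(FPKM + 1), the median difference from WT of the 789 named loci with a value in every library and 1 FPKM in at least 1 was 0.10 in *upf1-5* and 0.29 in *upf3-1*, while it was 0.14 in the double mutant, and over all loci of the table it was between -0.01 and 0.01.

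Named loci were low in abundance, and in this table loci of low FPKM passed the fold more often than abundant ones. Their median was 3.72 FPKM in *upf1-5*, 4.64 in *upf3-1*, 3.74 in the double mutant, and 3.25 in WT, whereas annotated genes had a median of 14.3 FPKM in WT. The counts were therefore made within classes of mean FPKM. Among loci of 10 FPKM or more, 28 of 195 named loci were up in *upf1-5* (14.4%), beside 3.18% of all loci of that class, and 10 were down (5.13%), beside 0.56%. In *upf3-1*, 45 of these 195 were up (23.1%), beside 7.09%, and 11 were down (5.64%), beside 5.79%. In the double mutant, 35 were up (17.9%), beside 7.04%, and 20 were down (10.3%), beside 7.06%. Abundant named loci thus rose more often than other loci of that abundance in every mutant, and their falls in *upf3-1* were near the share of the table. In the class from 2 to 10 FPKM, 83 of 403 named loci were up in *upf1-5* (20.6%), beside 11.6%, and 44 were down (10.9%), beside 3.12%. In *upf3-1*, 139 of 406 were up (34.2%), beside 22.3%, and 34 were down (8.37%), beside 7.23%. In the double mutant, 104 of 406 were up (25.6%), beside 22.1%, and 48 were down (11.8%), beside 5.07%. Under 2 FPKM the order turned round for rises. There, 39 of 149 named loci were up in *upf1-5* (26.2%), beside 28.8%, 54 of 157 in *upf3-1* (34.4%), beside 42.1%, and 52 of 157 in the double mutant (33.1%), beside 44.1%. Falls in this class were more frequent among named loci, with 23 in *upf1-5* (15.4%) and 32 in *upf3-1* (20.4%), both beside 13%, and 24 in the double mutant (15.3%), beside 10.2%.

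**Figure D2:**
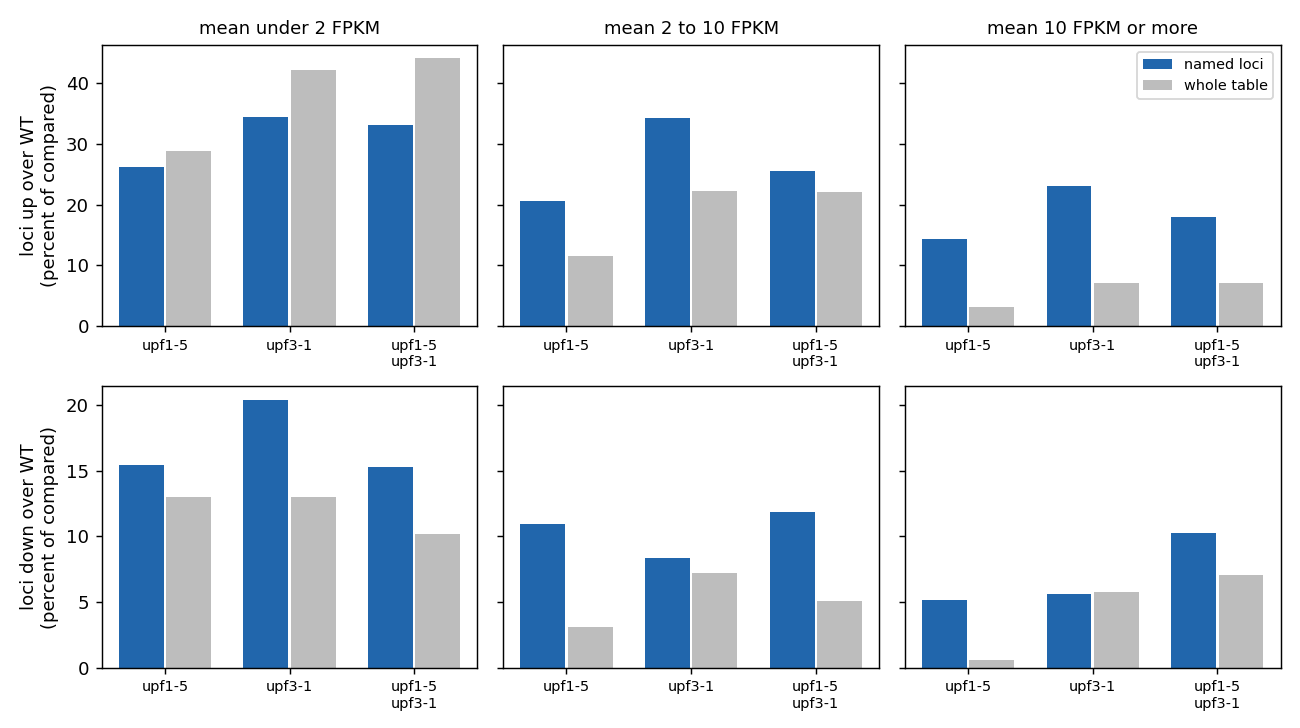
Share of the loci compared that were up (upper row) or down (lower row) 2-fold over WT, in percent, by class of mean FPKM over the 4 libraries, for named loci and for the whole table. Named loci have the higher share up in the class of 10 FPKM or more in every mutant (14.4%, 23.1%, and 17.9%), and the lower share up in the class under 2 FPKM.

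Of the 714 named loci compared in every mutant, 75 were up in all 3 (10.5%), beside 4.28% of all loci, and 12 were down in all 3 (1.68%), beside 0.59%, whereas 305 changed in none. These comparisons share the WT library, so a WT value that is off by chance moves all 3. The rises that passed the fold in *upf3-1* alone numbered 65 (9.1%), beside 3.33% of all loci, those in the double mutant alone 28 (3.92%), beside 2.88%, and those in *upf1-5* alone 18 (2.52%), beside 0.955%. Another 39 passed it in *upf3-1* and the double mutant but not in *upf1-5* (5.46%), beside 4.41%. Compared directly, 147 of 825 named loci were up in the double mutant over *upf1-5*, beside 9.64% of all loci, and 105 were down, beside 4.47%. In the double mutant over *upf3-1*, 105 of 840 were up, beside 6.67%, and 173 were down, beside 4.69%. In *upf1-5* over *upf3-1*, 99 of 802 were up, beside 5.33%, and 190 were down, beside 8.82%. More named loci were thus lower than higher both in the double mutant and in *upf1-5* when set against *upf3-1*.

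The loci that rose in all 3 mutants and had the largest ratio in their least changed mutant, among those with at least 0.05 FPKM in every library, carry names of unlike functions. The locus named after *AT4G22517*, a gene annotated at chr4:11856743-11857362 on the plus strand as a lipid-transfer protein, had 15.05 FPKM in *upf1-5*, 12.6 in *upf3-1*, 13.9 in the double mutant, and 0.0728 in WT. Its neighbour in the table, the locus of *AT4G22520*, which has the same annotation, had 105 FPKM in *upf1-5*, 71.8 in *upf3-1*, 154 in the double mutant, and 56.8 in WT, so the difference was far smaller there. The locus named after *AT2G43150*, a gene annotated at chr2:17945662-17947155 on the plus strand as an extensin-like protein of the cell wall, had 12.9 FPKM in *upf1-5*, 35.4 in *upf3-1*, 11.6 in the double mutant, and 1.95 in WT. The annotated gene *AT2G43150* is also in the table and was much more abundant, with 571 FPKM in *upf1-5*, 718 in *upf3-1*, 674 in the double mutant, and 243 in WT. The locus of *SVB*, known for trichome form, had 11.2 FPKM in *upf1-5*, 5.01 in *upf3-1*, 7.63 in the double mutant, and 0.858 in WT, whereas the gene *SVB* had 251 FPKM in *upf1-5*, 256 in *upf3-1*, 261 in the double mutant, and 237 in WT. *CYP96A12*, a cytochrome P450, had 0.651 FPKM in *upf1-5*, 1.599 in *upf3-1*, 2.03 in the double mutant, and 0.0914 in WT. All the mutants lay above WT at each of these loci, but the order of the mutants differed between them.

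The locus of *IQD5*, whose protein binds calmodulin and microtubules, had 6.78 FPKM in *upf1-5*, 12.8 in *upf3-1*, 7.07 in the double mutant, and 1.23 in WT. The gene *IQD5* itself had 26.99 FPKM in *upf1-5*, 21.7 in *upf3-1*, 19.01 in the double mutant, and 21.3 in WT, with no such rise. A locus of *AT1G50000*, an annotated methyltransferase, had 5.52 FPKM in *upf1-5*, 4.98 in *upf3-1*, 9.998 in the double mutant, and 0.302 in WT. Its gene had 15.8 FPKM in *upf1-5*, 7.98 in *upf3-1*, 9.08 in the double mutant, and 21.3 in WT, so in *upf3-1* and the double mutant the locus rose while the gene was lower than in WT. *AT5G41765*, annotated as a transcriptional regulator related to storekeeper proteins, had 0.619 FPKM in *upf1-5*, 3.08 in *upf3-1*, 2.37 in the double mutant, and 0.104 in WT. *AT4G35295*, annotated as a putative homoserine kinase, had 5.48 FPKM in *upf1-5*, 7.24 in *upf3-1*, 4.37 in the double mutant, and 0.586 in WT. The remaining loci of this list, *AT2G01410* (an NHL domain protein), *AT4G10695* (annotated as CDC68-like), and the noncoding *AT4G36032*, had between 1.74 and 8.19 FPKM in the mutants and between 0.0929 and 0.432 FPKM in WT.

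**Figure D3:**
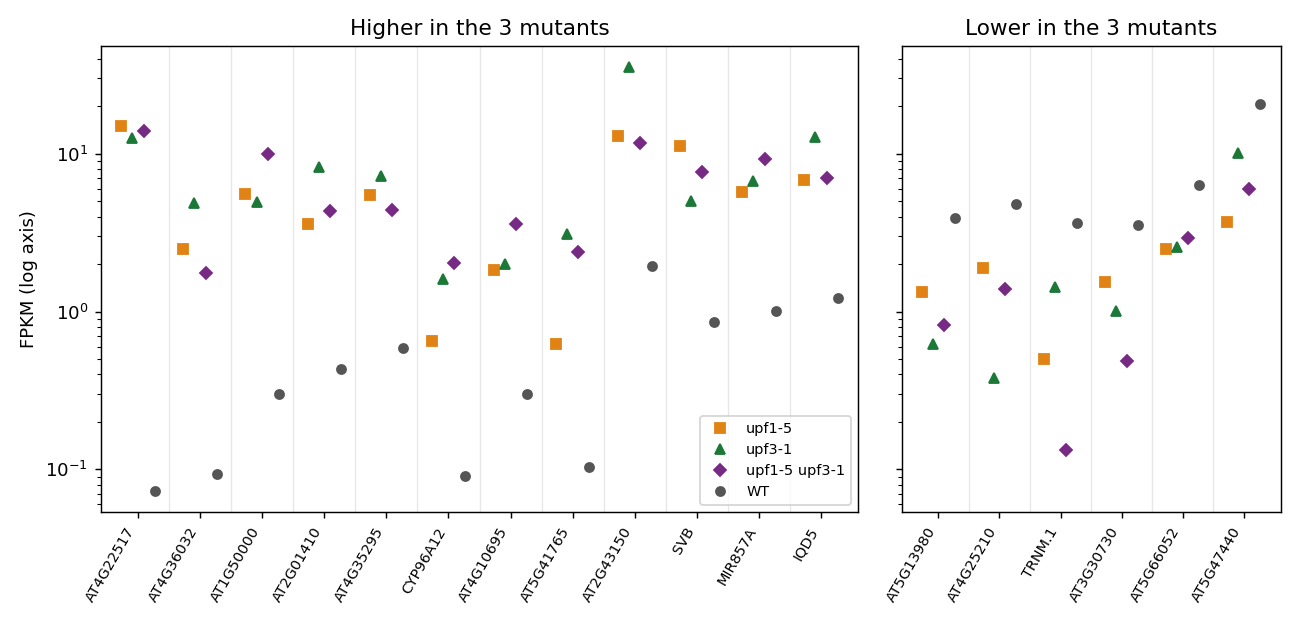
FPKM on a log axis of the 12 loci that rose (left) and 6 that fell (right) in all 3 mutants with at least 0.05 FPKM in every library, with 1 point for each library and no error bars. WT lies apart from the 3 mutants at each locus, because the loci were chosen for this.

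Falls shared by the 3 mutants were fewer. *AT5G47440*, annotated as an auxin canalization protein, had 3.72 FPKM in *upf1-5*, 10.1 in *upf3-1*, 5.995 in the double mutant, and 20.7 in WT. *AT4G25210*, another storekeeper-related regulator, had 1.88 FPKM in *upf1-5*, 0.378 in *upf3-1*, 1.39 in the double mutant, and 4.81 in WT, and here *upf3-1* was the lowest. *AT5G13980*, a glycosyl hydrolase, had 1.33 FPKM in *upf1-5*, 0.622 in *upf3-1*, 0.822 in the double mutant, and 3.93 in WT. *AT5G66052* and *AT3G30730*, both uncharacterized, had at most 2.94 FPKM in a mutant, against 6.36 and 3.55 FPKM in WT. *TRNM.1*, a transfer RNA name, had 0.4997 FPKM in *upf1-5*, 1.43 in *upf3-1*, 0.133 in the double mutant, and 3.64 in WT.

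Some loci had a value near 0 in 1 library, and no ratio is given for them. *AT3G63050*, *AT1G10300* (a nucleolar GTP-binding protein), *AT3G27860*, *CRRSP4*, *ATPUP20*, *AT3G02490*, and *HTR2* (a histone H3 name) had under 0.05 FPKM in WT and between 0.304 and 6.74 FPKM in the mutants. *MIND*, which takes part in placing the division site of chloroplasts, had 1.58 FPKM in *upf1-5* and 0.471 in the double mutant, was near 0 in *upf3-1*, and had 4.59 FPKM in WT. The same library was near 0 at *AT1G20691*, with 3.02 FPKM in *upf1-5* and 1.93 in the double mutant, against 10.1 in WT, and at *AT4G04925*. *AT1G33590*, a leucine-rich repeat protein, was near 0 in the double mutant, with 20.5 FPKM in *upf1-5*, 7.48 in *upf3-1*, and 23.6 in WT. *AT3G26350*, *ELC-Like* (near 0 in *upf1-5* too), *TBL7*, and *AT4G25710* were also near 0 there, with WT values between 0.542 and 1.55 FPKM. For *GAPCP-1*, a plastid enzyme of glycolysis, the table gave no WT value, and the locus had 7.102 FPKM in *upf1-5* and 91.8 in *upf3-1*, while the double mutant had 16.4.

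The 5 most abundant named loci had lower values in *upf3-1* and the double mutant than in WT, and 3 of them carry names of chloroplast proteins. *FED*, matched by the first word of its full name to a ferredoxin gene that passes electrons on from photosystem I, had 2412 FPKM in *upf1-5*, 1428 in *upf3-1*, 1096 in the double mutant, and 3069.7 in WT. *ATPRX*, a chloroplast peroxiredoxin, had 738 FPKM in *upf1-5*, 484 in *upf3-1*, 376 in the double mutant, and 894 in WT. *PGR5-LIKE*, a name from the cyclic electron flow around photosystem I, had 421 FPKM in *upf1-5*, 306 in *upf3-1*, 251 in the double mutant, and 499 in WT. At these 3 loci the order was the same, with the double mutant lowest and WT highest. The locus named *RBCS1A*, after a small subunit of the enzyme that fixes CO2, is numbered opposite to its gene and did not follow them. It had 131 FPKM in *upf1-5*, 146 in *upf3-1*, 90.7 in the double mutant, and 129 in WT. The gene *RBCS1A* was far more abundant and had the same order as these 3 loci. It had 16528 FPKM in *upf1-5*, 9140 in *upf3-1*, 8395 in the double mutant, and 18826 in WT. The locus of *ATGRP23*, a glycine-rich protein, had 527 FPKM in *upf1-5*, 66.1 in *upf3-1*, 54.2 in the double mutant, and 302 in WT, above WT in *upf1-5* and below it in the other mutants. The gene *ATGRP23* was more abundant, with 1646 FPKM in *upf1-5*, 2489 in *upf3-1*, 1220 in the double mutant, and 2184 in WT. In both single mutants it thus differed from WT in the opposite direction to the locus. *AT1G13609*, a defensin-like protein, had 466 FPKM in *upf1-5*, 147 in *upf3-1*, 173 in the double mutant, and 376 in WT. Another glycine-rich protein locus, *DOT1*, moved the other way, with 197 FPKM in *upf1-5*, 381 in *upf3-1*, 228 in the double mutant, and 77.3 in WT.

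To see whether a named locus followed its gene, each was set beside the annotated gene of that name. Names other than AT identifiers were checked for the chromosome of the gene, but not for its position there, so some pairs can be wrong. Several loci named *FMO*, for example, were paired with *AT1G12200*. Some of them are numbered between loci of *AT1G60545* and *AT1G63130*, far from that gene. The gene was in the table for 585 loci, and both had a value in every library and reached 1 FPKM in 411 pairs. The locus had the lower FPKM of the pair in 311 of these in WT, and in 253 pairs in every library, with a median in WT of 3.44 FPKM for the loci and 14.3 FPKM for the genes. In the double mutant, 108 of the loci and 64 of the genes were up 2-fold, and in 41 pairs both were. In *upf3-1*, 143 loci and 60 genes were up and both were in 34 pairs, and in *upf1-5*, 87 loci and 43 genes were up and both were in 17 pairs. Most loci that rose thus did so without a 2-fold rise of the gene. The median difference from WT on log2(FPKM + 1) in *upf3-1* was 0.36 for the loci and -0.06 for the genes.

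**Figure D4:**
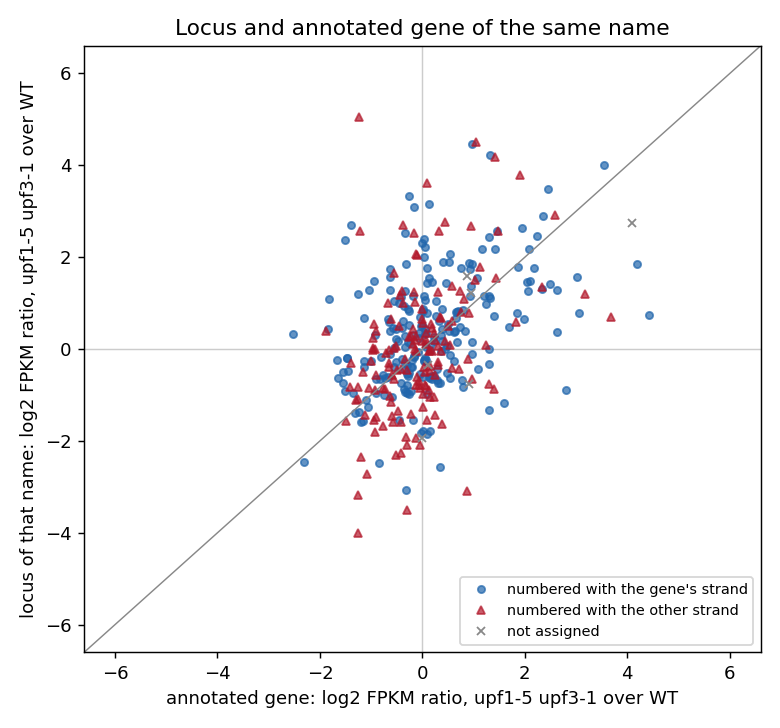
Log2 FPKM ratio of the double mutant over WT for the annotated gene (horizontal) and for the named locus (vertical), 1 point for each of the 382 pairs with 0.05 FPKM or more in every library. The diagonal marks equal ratios, and the points spread further along the vertical axis than along the horizontal one. Colours give the run of locus numbers, with the gene's strand or with the other.

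Single pairs show the range. *CLA1* encodes the first enzyme of the plastid isoprenoid pathway, and its locus had 38.3 FPKM in *upf1-5*, 273 in *upf3-1*, 82.9 in the double mutant, and 16.8 in WT. The gene *CLA1* had 134 FPKM in *upf1-5*, 139 in *upf3-1*, 132 in the double mutant, and 133 in WT, so the peak of the locus in *upf3-1* was not seen in the gene. *AT2G05632*, uncharacterized, had 16.8 FPKM in *upf1-5*, 33.9 in *upf3-1*, 30.01 in the double mutant, and 3.497 in WT at the locus. Its gene had 18.3 FPKM in *upf1-5*, 22.5 in *upf3-1*, 20.3 in the double mutant, and 22.7 in WT. *RPL12-A*, a chloroplast ribosomal protein, had 3.94 FPKM in *upf1-5*, 3.53 in *upf3-1*, 5.43 in the double mutant, and 2.35 in WT at the locus, while the gene had 525 FPKM in *upf1-5*, 338 in *upf3-1*, 287 in the double mutant, and 682 in WT, so the locus was higher and the gene lower in the mutants than in WT. At *ATGSTU10*, a glutathione S-transferase, the gene changed more than the locus, which had 8.25 FPKM in *upf1-5*, 8.32 in *upf3-1*, 11.7 in the double mutant, and 6.99 in WT. The gene *ATGSTU10* had 9.93 FPKM in *upf1-5*, 6.92 in *upf3-1*, 80.7 in the double mutant, and 3.77 in WT. At *DOT1* the locus and the gene moved together, the gene having 403 FPKM in *upf1-5*, 1036 in *upf3-1*, 773 in the double mutant, and 371 in WT. Among other loci named here, the genes *CYP96A12*, *CIPK5*, *HERK1*, *KAT1*, *QWRF9*, *AT2G36240*, *AT4G25210*, *AT5G13980*, and *AT5G47440* stayed within 2-fold of WT in each mutant. Other genes did not. The gene *AT2G47360* was highest in *upf3-1*, as its locus was, with 10.1 FPKM against 2.21 in WT. *ATVAMP726* had 5.01 FPKM in *upf1-5* against 0.777 in WT, and *AT2G04460* had 39.5 in the double mutant against 3.39. The gene *AT2G01410* fell in *upf3-1*, to 4.83 FPKM against 14 in WT. The loci of *AT2G13130*, *BLT*, *AT1G10300*, *AT1G33590*, and *AT3G02490* differed most from their genes in the log2 ratio of the double mutant to WT, each with a value near 0 in the locus or the gene. At *BLT* the locus had 6.99 FPKM in *upf1-5* and 1.23 in the double mutant, and was near 0 in *upf3-1* and WT. The gene *BLT* was near 0 in *upf1-5*, and had 6.45 FPKM in *upf3-1*, 1.76 in the double mutant, and 8.34 in WT.

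The table gives neither the position nor the strand of a locus. However, the numbers of the named loci run through the gene order of each chromosome 2 times, and genes on the plus strand mostly fall in the first run and genes on the minus strand in the second. By this order, 205 of 573 loci whose gene is also in the table (35.8%) were numbered with the strand opposite to their gene, compared with 16 of 241 loci whose gene is not (6.64%). This reading was chosen after the numbers were seen, and is inferred rather than given. The library kits named by the labels and by the methods keep the strand. The methods, however, give default settings for TopHat and Cufflinks and name no strand option. Reads of a gene and of a transcript opposite to it may therefore not have been told apart. Among loci numbered opposite to a gene in the table, 37 of 171 were up (21.6%) and 43 were down (25.1%) in the double mutant, whereas among those numbered with such a gene 97 of 305 were up (31.8%) and 34 were down (11.1%), beside 15% up and 6.91% down in the table. Falls were not more frequent among the opposite loci in *upf3-1*, and in *upf1-5* their share was near that of the other loci. The opposite loci were up in 35.7% and down in 9.52% in *upf3-1*, and those numbered with the gene in 36.1% and 14.97%. In *upf1-5*, the opposite loci were up in 19.6% and down in 16.1%, and those numbered with the gene in 25.8% and 15.1%. *IQD5*, *AT1G50000*, *AT2G43150*, *AT5G41765*, *AT1G13609*, and *AT5G13980* were numbered opposite to their genes.

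Among loci matched to a gene, pseudogenes formed the largest group besides coding genes. Of 123 such loci, 21 of 104 compared were up in *upf1-5* (20.2%), 28 of 104 in *upf3-1* (26.9%), and 38 of 108 in the double mutant (35.2%). Falls numbered 2 (1.92%), 9 (8.65%), and 7 (6.48%) in the same order of mutants, beside 2.4%, 6.91%, and 6.91% of the table. The share up was above that of all named loci in the double mutant (26.1%), near it in *upf1-5* (20.8%), and below it in *upf3-1* (32.4%), and the shares of the table were 15%, 7.64%, and 14.6% in that order. *AT3G61020* had 19.2 FPKM in *upf1-5*, 20.4 in *upf3-1*, 23.2 in the double mutant, and 5.57 in WT. *ATRABA4E*, named after a small GTPase of membrane traffic, had 14.9 FPKM in *upf1-5*, 18.7 in *upf3-1*, 21.7 in the double mutant, and 5.46 in WT. *AT3G30214* had 11.4 FPKM in *upf1-5*, 25.3 in *upf3-1*, 17.9 in the double mutant, and 3.95 in WT. All the mutants exceeded WT 2-fold at these 3 loci. *AT2G04460* differed, with 9.87 FPKM in *upf1-5*, 6.17 in *upf3-1*, 89.1 in the double mutant, and 5.51 in WT, so only the double mutant was high. Of the 4 loci named *AT2G11240*, a pseudogene, 3 reached a 2-fold difference in no mutant, and the other fell to 4.19 FPKM in the double mutant, against 8.66 in WT.

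Pentatricopeptide repeat proteins, which bind and process RNA in chloroplasts and mitochondria, gave 36 loci by annotation. Of those compared, 11 of 34 were up in *upf1-5* (32.4%), 7 of 30 in *upf3-1* (23.3%), and 10 of 30 in the double mutant (33.3%). Falls numbered 1 (2.94%), 2 (6.67%), and 2 (6.67%) in the same order, beside 2.4%, 6.91%, and 6.91% of the table. Among all named loci the shares up were 20.8%, 32.4%, and 26.1% in that order, and among all loci 7.64%, 14.6%, and 15%. These 36 loci were thus below the named loci in *upf3-1*. A further 26 loci that could not be matched have names starting with *PCMP*, an older name of the same family. Of these, 10 of 23 (43.5%), 8 of 21 (38.1%), and 8 of 22 (36.4%) were up, and 0 (0%), 1 (4.76%), and 0 (0%) down. *AT3G09060* had 4.28 FPKM in *upf1-5*, 6.49 in *upf3-1*, 6.25 in the double mutant, and 1.36 in WT. A locus numbered opposite to *AT5G24060* was the most abundant of the family, with 36.3 FPKM in *upf1-5*, 13.5 in *upf3-1*, 25.9 in the double mutant, and 8.28 in WT. *PCMP-A5* had 9.76 FPKM in *upf1-5*, 7.95 in *upf3-1*, 8.49 in the double mutant, and 3.83 in WT, and *PCMP-E54* had 4.33 FPKM in *upf1-5*, 4.22 in *upf3-1*, 5.24 in the double mutant, and 1.71 in WT. All 3 mutants exceeded WT 2-fold at these loci except *upf3-1* at *AT5G24060*, with a ratio of 1.63.

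Receptors and kinases gave 54 loci. Of those compared, 12 of 43 were up in *upf1-5* (27.9%), beside 7.64% of the table, and 18 of 44 in *upf3-1* (40.9%), beside 14.6%. In the double mutant 11 of 43 were up (25.6%), beside 15% of the table and 26.1% of all named loci. Falls numbered 7 (16.3%), 5 (11.4%), and 2 (4.65%) in the same order, beside 2.4%, 6.91%, and 6.91% of the table. *HERK1*, a receptor kinase of cell elongation, had 19.3 FPKM in *upf1-5*, 83.2 in *upf3-1*, 40.9 in the double mutant, and 17.2 in WT, at a locus numbered opposite to its gene. *AtRLP46*, a receptor-like protein, had 2.74 FPKM in *upf1-5*, 5.38 in *upf3-1*, 3.301 in the double mutant, and 0.908 in WT. *CIPK5*, a kinase of calcium signalling, had 2.25 FPKM in *upf1-5*, 2.89 in *upf3-1*, 2.19 in the double mutant, and 0.844 in WT. Disease resistance genes named 15 loci. Of these, 0 were up and 3 down in *upf1-5*, 3 up and 1 down in *upf3-1*, and 1 up and 3 down in the double mutant. The shares up of 0%, 20%, and 6.67% stand beside 7.64%, 14.6%, and 15% of the table. The shares down of 20%, 6.67%, and 20% stand beside 2.4%, 6.91%, and 6.91%. The median difference from WT on log2(FPKM + 1) was between -0.19 and 0.29.

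Transcription factor names gave 40 loci, with 6 up (17.6%) and 7 down (20.6%) of 34 in *upf1-5*, beside 7.64% and 2.4% of the table. In *upf3-1*, 10 of 32 were up (31.2%) and 8 down (25%), beside 14.6% and 6.91%, and in the double mutant 5 of 31 were up (16.1%) and 7 down (22.6%), beside 15% and 6.91%. Their falls were more frequent than the 11.99%, 11%, and 13.4% of all named loci. The locus of *GIK*, an AT-hook protein of flower development, had 1.55 FPKM in *upf1-5*, 4.59 in *upf3-1*, 3.002 in the double mutant, and 0.309 in WT. The gene *GIK* had 1.61 FPKM in *upf1-5*, 0.568 in the double mutant, and 0.529 in WT. It was near 0 in *upf3-1*, where the locus was highest. *ATHB-1*, a homeodomain-leucine zipper protein, had 1.13 FPKM in *upf1-5*, 24.3 in *upf3-1*, 2.36 in the double mutant, and 0.785 in WT, so *upf3-1* was far above the other libraries. The gene *ATHB-1* had 128 FPKM in *upf1-5*, 201 in *upf3-1*, 203 in the double mutant, and 111 in WT. The locus of *KNAT6*, a homeobox protein of the shoot apex, numbered opposite to its gene, was high in *upf1-5* only, with 2.31 FPKM in *upf1-5*, 0.787 in *upf3-1*, 0.401 in the double mutant, and 0.543 in WT. The gene *KNAT6* had 6.99 FPKM in *upf1-5*, 9.88 in *upf3-1*, 10.7 in the double mutant, and 6.55 in WT, with no such peak. *AT2G22710*, uncharacterized, was high in *upf1-5* as well, with 4.07 FPKM in *upf1-5*, 0.356 in *upf3-1*, 0.563 in the double mutant, and 0.276 in WT. The uncharacterized *AT2G47360* was highest in *upf3-1*, with 0.271 FPKM in *upf1-5*, 5.999 in *upf3-1*, 1.31 in the double mutant, and 0.381 in WT. Of the single mutants, *QWRF9* rose in *upf3-1* only, and it also exceeded WT in the double mutant, with 0.173 FPKM in *upf1-5*, 2.63 in *upf3-1*, 1.48 in the double mutant, and 0.121 in WT. *AT2G36240*, a pentatricopeptide protein, rose in *upf1-5* and the double mutant, with 7.44 FPKM in *upf1-5*, 1.39 in *upf3-1*, 7.04 in the double mutant, and 1.76 in WT. A locus of *IAA14*, an auxin response repressor, had 5.48 FPKM in *upf1-5*, 8.77 in *upf3-1*, 15.7 in the double mutant, and 2.65 in WT, whereas the gene had 7.04 FPKM in *upf1-5*, 15.2 in *upf3-1*, 11.4 in the double mutant, and 9.15 in WT.

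The other coding names cover many functions, and loci that rose in all 3 mutants are found among them. *ATVAMP726*, a protein of vesicle fusion, had 18.3 FPKM in *upf1-5*, 13.4 in *upf3-1*, 9.204 in the double mutant, and 2.697 in WT. *MFL1*, annotated as a mitochondrial substrate carrier, had 7.396 FPKM in *upf1-5*, 2.28 in *upf3-1*, 4.07 in the double mutant, and 0.627 in WT, while the gene *MFL1* was lower in the mutants, with 36.6 FPKM in *upf1-5*, 28.3 in *upf3-1*, 18.3 in the double mutant, and 48.03 in WT. *KAT1*, a potassium channel of guard cells, gave a locus numbered opposite to its gene, with 4.59 FPKM in *upf1-5*, 1.72 in *upf3-1*, 3.103 in the double mutant, and 0.476 in WT. At these loci *upf1-5* was the highest library. *COBL4*, of the COBRA-like family of the cell wall, had 5.595 FPKM in *upf1-5*, 8.46 in *upf3-1*, 9.48 in the double mutant, and 1.398 in WT, also at a locus numbered opposite to its gene. *PUB30*, a U-box name of protein ubiquitination, had 4.796 FPKM in *upf1-5*, 15.3 in *upf3-1*, 6.56 in the double mutant, and 1.47 in WT. *ATGSTF2*, a glutathione S-transferase, had 4.87 FPKM in *upf1-5*, 20.6 in *upf3-1*, 9.07 in the double mutant, and 2.01 in WT. In *upf3-1*, the last locus and that of *PUB30* exceeded every other library. The locus of *AT1G49500*, abundant in WT, was low in the genotypes that carry *upf1-5*, with 19.8 FPKM in *upf1-5*, 114 in *upf3-1*, 25.9 in the double mutant, and 142 in WT. The gene *AT1G49500* had 161 FPKM in *upf1-5*, 90.6 in *upf3-1*, 60.1 in the double mutant, and 297 in WT. In the gene, unlike the locus, *upf3-1* was lower than *upf1-5*.

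Other noncoding RNAs gave 43 loci. *TAS1A*, *TAS1C*, and *TAS2* are cut after the action of a microRNA to make small RNAs that silence other mRNAs in trans. *TAS1A* had 51.95 FPKM in *upf1-5*, 45.9 in *upf3-1*, 46.8 in the double mutant, and 50.5 in WT. *TAS2* had 21.6 FPKM in *upf1-5*, 11.5 in *upf3-1*, 14.9 in the double mutant, and 22.6 in WT, and *TAS1C* was between 8.89 and 12.9 FPKM, so none of these 3 loci changed 2-fold. *AT3G25795*, the gene of *TAS4*, had no WT value in the table and had 5.23 FPKM in *upf1-5* and 14.01 in *upf3-1*, while the double mutant had 12.9. Of 11 loci of small nucleolar RNAs, which guide the modification of ribosomal RNA, 10 were lower in the double mutant than in WT and 8 were higher in *upf3-1*, mostly by less than 2-fold. Of all loci compared in the table, 49.3% were lower in the double mutant and 49.1% higher in *upf3-1*, and of all named loci 42.1% and 65.2%. The most abundant, *AT1G74453*, had 110.1 FPKM in *upf1-5*, 123 in *upf3-1*, 68.1 in the double mutant, and 94.8 in WT.

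A locus of *AT3G41768*, annotated as ribosomal RNA, had 175 FPKM in *upf1-5*, 92.1 in *upf3-1*, 228 in the double mutant, and 40.9 in WT. A second locus of that name, numbered with the other strand, had 90.8 FPKM in *upf1-5*, 43.2 in *upf3-1*, 109 in the double mutant, and 27.7 in WT, in the same order of libraries. The labels name a kit for polyadenylated RNA and the methods a kit that removes ribosomal RNA, and the part of ribosomal RNA levels in the other results was not tested. Names of chloroplast genes were read at some loci too, such as *NDHA*, a subunit of a chloroplast dehydrogenase, with 4.11 FPKM in *upf1-5*, 5.79 in *upf3-1*, 1.96 in the double mutant, and 0.646 in WT.

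The annotated genes behind the named loci had fewer exons than the other genes of the table. Of 830 loci matched to 1 gene, 245 had a gene that is not itself in the table. Among the coding genes of these, 52.6% have a single exon in the model whose coding sequence is longest, compared with 36.8% where the gene is in the table and 15.5% of all annotated genes of the table. An exon junction lying over 50 nt downstream of the stop, a feature that NMD is known to recognise, was annotated for 12.3% of the first, 4.33% of the second, and 2.32% of all annotated genes. A 3′-UTR of 350 nt or more was annotated for 34.4%, 29.9%, and 21.1%, and an upstream open reading frame of 35 codons or more for 7.14%, 11.3%, and 9.71%. Loci of coding genes with any of these features were up no more often than those without. Of those compared in the double mutant, 47 of 215 with a feature were up (21.9%), and 85 of 323 without one (26.3%), beside 15% of all loci. In *upf1-5* the counts were 37 of 206 (17.96%) with a feature and 70 of 310 (22.6%) without, beside 7.64% of all loci. In *upf3-1* they were 71 of 211 (33.6%) and 114 of 314 (36.3%), beside 14.6%. Falls in *upf3-1* were more frequent with a feature, at 16.1%, than without, at 9.55%, beside 6.91% of all loci. The other mutants had the reverse order. Falls there were 14.6% with a feature and 16.5% without in *upf1-5*, beside 2.4%. In the double mutant they were 14% and 16.1%, beside 6.91%. The median difference from WT on log2(FPKM + 1) in *upf3-1* was 0.43 with a feature and 0.32 without. It was -0.003 and 0.114 in *upf1-5*, and 0.055 and 0.098 in the double mutant. The features are those of the annotated gene, and the transcripts of the loci themselves may differ.

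Not every name could be tied to a gene. Of the 964 loci, 570 carry an AT identifier, 32 names stand on more than 1 locus, and 134 names could not be tied to 1 gene, 32 because several genes share the name and 13 because the gene lies on another chromosome than the neighbouring loci. Short names such as *FED* and *PGR5-LIKE* read like the first part of a longer name. A wrong match on the right chromosome would not have been found, and would enter the counts by gene, strand, and class. In 807 loci a value was recovered in every library, and 931 reached 1 FPKM in at least 1. Values were missing at 27 loci in the double mutant, at 61 in *upf1-5*, at 55 in *upf3-1*, and at 61 in WT.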

How the data were processed

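RNA of 4 genotypes was sequenced by the authors as 1 library each. Per the labels and the methods, they aligned reads to TAIR10 with TopHat and Bowtie, assembled transcripts with Cufflinks, and compared the libraries in 6 pairs with Cuffdiff. The deposited table gives, per pair and locus, the sum of both FPKM, normalized by the authors. It also gives the deposited fold, the higher FPKM over the lower. The fold of this comparison served only to split the sum into the FPKM of both libraries. The q-value, 1 column with the authors' test results, was not used, and 0 columns of single samples stayed unmapped. Col-0 was read as WT, and NMD2 as the double mutant because it was the only name left. Estimates of a value from several pairs were combined, and 100% of 77490 values of 1 FPKM or more had estimates within 1% of each other. The recovery was tested on simulated data.

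No test was made, since no genotype has replicates, and no interval can be given without read counts. A locus needed a fold of 2 and 1 FPKM in at least 1 library. Medians use log2(FPKM + 1). Names were matched to RefSeq TAIR10.1 by AT identifier (570 loci), symbol (176), synonym (70), or the first word of a synonym (14), the last way chosen after seeing the names. Classes follow the annotated gene type and words of its description, and the microRNA genes were set apart after seeing the data.

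The loci named are, among those with values in every library and 1 FPKM in at least 1, the 10 with the largest smallest rise and the 5 with the largest smallest fall in the 3 mutants, the 5 largest rises and falls in the double mutant, the 5 most abundant, the 5 that differ most from their gene, the 3 largest rises in each single mutant only (2-fold there, within 1.5-fold in the other single mutant), and up to 5 without a WT value and with at least 5 FPKM in each mutant. Because many of these have values near 0, 12 rises and 6 falls with 0.05 FPKM or more in every library were added after the values were seen, as were the microRNA loci and the examples given for classes and gene pairs. The loci and lists were chosen with earlier results of these data known. The alternatives are a different FPKM filter, a fold of 1.5 or 4, pseudocounts, rescaled libraries, and matching by AT identifier alone. One locus chosen by these rules is not reported here. Flowering time and qPCR were not analysed here. Python 3.11.15, NumPy 2.4.6, pandas 2.3.3, pysam 0.24.0, and matplotlib 3.10.9 were used.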

Additional observations from a re-analysis of the deposited data

Results flagged for a closer look

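Among the loci chosen by rank as listed above, with 0.05 FPKM or more in every library, 3 showed effects of opposite direction. There a mutation moved the FPKM one way in WT and the other way in the other mutant, by more than 2-fold each time. Other named loci also met this rule, so 3 is not a count over all of them. A locus of *AT3G61310*, for example, had 3.57 FPKM in *upf1-5*, 12.2 in *upf3-1*, 0.0706 in the double mutant, and 0.7996 in WT. None of these differences was tested, since each genotype has 1 library. For *AT4G36032*, the log2 effect of *upf1-5* was -1.49 in the *upf3-1* background, against 4.74 in WT, a difference of -6.23. *AT2G43150* showed an *upf1-5* effect of -1.61 in *upf3-1*, against 2.72 in WT, a difference of -4.33. For *AT4G25210*, the *upf1-5* effect was 1.88 in *upf3-1*, against -1.35 in WT, a difference of 3.24.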

How the results depend on the processing

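More named loci were up than down in each mutant under each alternative run, and so were more loci of the whole table. As reported, 63.5% of the changed named loci were up in *upf1-5*, beside 76.1% of the changed loci of the table. These shares were 74.6% beside 67.9% in *upf3-1*, and 66% beside 68.5% in the double mutant. The counts of named loci moved with the filter and the fold. They are given as up and down, and the counts not given stayed within 1.5 times those of the report. With 1 FPKM or more in both libraries, 95 and 53 named loci changed in *upf1-5*, 168 and 41 in *upf3-1*, and 123 and 68 in the double mutant. With 5 FPKM or more in at least 1 library, they were 67 and 38, 146 and 24, and 105 and 50 in the same order. A fold of 1.5 gave 263 up and 157 down in *upf1-5*, 143 down in *upf3-1*, and 193 down in the double mutant. A fold of 4 gave 56 and 29, 110 and 34, and 93 and 30. A pseudocount of 1 FPKM gave 96 and 58 in *upf1-5*, 52 down in *upf3-1*, and 72 down in the double mutant. Missing values set to 0 and values under 0.05 FPKM left out, both chosen after seeing the data, kept all counts within 1.5 times. Of 90 ratios of named loci, a pseudocount of 1 FPKM moved 49 by over 1.5 times, and either rescaling moved 0. No paired analysis was possible because each genotype has 1 library, and for the same reason no library could be left out. The read depth behind a value is unknown, so loci near 1 FPKM are the least certain.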
